A study of Mus musculus with 72 samples.

Results

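The genes described here are 10 genes of the circadian clock: Arntl, Npas2, Clock, Per1, Per2, Per3, Dbp, Hlf, Nr1d1 and Nr1d2. They were taken by symbol from a table of read counts for 23930 genes in 72 mouse lung libraries. All 10 symbols were present, and all 10 passed the filter on low counts in every fit. Every animal carried the genotype Gprc5a-/-, the loss of a receptor gene of the airway epithelium, so no library shows the clock of a wild-type lung. Tumors had been dissected by needle out of the lungs of 16 animals: 4 tumor libraries came from 3 animals aged 16 weeks at the end of exposure to NNK (a nitrosamine carcinogen of tobacco), 6 from 4 animals aged 28 weeks, 3 months after exposure, and 23 from 9 animals aged 44 weeks, 7 months after it. Normal-appearing lung gave 1 library from each of 39 animals, including those 16: 10 at baseline (aged 8 weeks, not exposed), 10 at the end of exposure, 9 at 3 months and 10 at 7 months. Age, exposure and time since exposure moved together, and their parts in a difference between times cannot be told apart.

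The animal names begin with F or M, which the labels do not define. Xist, the RNA of the inactive X, lay at no more than 1.36 CPM (library-size scaled counts) in the 36 M libraries and at 656 to 6031 CPM in the 36 F libraries, and the Y-linked Ddx3y lay at 72.4 to 166 CPM in M and at no more than 0.0722 CPM in F. The comparisons by letter were added after the data had been seen. The lungs came from 5 M and 5 F animals at baseline, 5 and 5 at the end of exposure, 4 and 5 at 3 months, and 5 and 5 at 7 months. The hour of collection, on which clock genes depend, the litter and the sequencing chip of each library were not among the labels, so sex, hour, litter and chip cannot be told apart where a result goes with the letter. The libraries held 7459147 to 21822522 counts, with a median of 15253600, and Gprc5a had no more than 4 counts in any of them. In the lungs the 7 alveolar type 2 markers summed to 12451 to 60418 CPM and the 4 club cell markers to 11208 to 132093 CPM. In bulk tissue, fewer cells of a type and less RNA per cell cannot be told apart.

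In the mammalian clock, the proteins of Arntl (also called Bmal1) and of Clock or its relative Npas2 bind as pairs to E-box sequences and switch on the Per and Cry genes, whose proteins then block that pair. The same pair drives Nr1d1 and Nr1d2, which encode the REV-ERB repressors that hold Arntl and Npas2 down through ROR elements, and Dbp, which with its relatives Hlf and Tef acts on D-box sequences. Arntl and Npas2 are therefore known to peak at about the opposite time of day from Dbp, the Per genes and the Nr1d genes, in lung as in other organs.

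Promoter windows from RefSeq on GRCm38.p6, 250 bases before to 50 bases after a gene's start, were given for 9 of the 10 genes, Per2 being the exception. Of these, 3 windows are printed because each holds 1 of the 3 clock elements searched, in capitals. Each is written 5′ to 3′ on the gene's own strand: Per1 from chr11:69098699-69098998 on the plus strand with an E-box (CACGTG), Per3 from chr4:151044616-151044915 on the minus strand with 2 D-boxes (TTATGTAA), and Arntl from chr7:113207261-113207560 on the plus strand with a ROR element (GGTCA directly after the letters ANNTN).
Per1: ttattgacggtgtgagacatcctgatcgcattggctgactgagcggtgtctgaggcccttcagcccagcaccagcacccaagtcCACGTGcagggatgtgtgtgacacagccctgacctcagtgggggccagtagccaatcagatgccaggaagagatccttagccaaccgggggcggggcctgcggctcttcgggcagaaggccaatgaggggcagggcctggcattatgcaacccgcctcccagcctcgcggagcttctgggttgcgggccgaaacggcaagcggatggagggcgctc
Per3: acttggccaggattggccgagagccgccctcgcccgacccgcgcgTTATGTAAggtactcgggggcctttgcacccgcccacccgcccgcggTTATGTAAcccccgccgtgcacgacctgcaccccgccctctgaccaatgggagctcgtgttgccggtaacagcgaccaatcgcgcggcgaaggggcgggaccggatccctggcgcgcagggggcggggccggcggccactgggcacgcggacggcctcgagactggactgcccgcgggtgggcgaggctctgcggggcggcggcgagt
Arntl: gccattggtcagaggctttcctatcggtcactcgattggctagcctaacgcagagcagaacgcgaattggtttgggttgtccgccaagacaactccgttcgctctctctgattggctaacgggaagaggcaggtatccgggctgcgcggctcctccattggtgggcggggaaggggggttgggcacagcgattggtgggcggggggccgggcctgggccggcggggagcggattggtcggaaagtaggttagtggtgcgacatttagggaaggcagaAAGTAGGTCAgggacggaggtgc
Searched on both strands, these letters occurred in 7.15%, 0.938% and 2.46% of all 32851 windows for the E-box, the D-box and the ROR element. The 9 genes had 13 windows, and each element was found in only 1 of them, for the E-box a share near that of all windows. The matches do not overlap one another. A match describes the letters only, and the other windows may hold elements of another spelling.

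At the first 2 times no clock gene was called between the M and F lungs. Their values overlapped for all 10 members at baseline, where 1.97% of all genes were without overlap, and for 9 at the end of exposure (0.865%), the exception being Per3 at 65.0 to 88.0 CPM in M and 40.3 to 56.7 CPM in F. Arntl, which acts in the activator pair, lay at 1.48 to 2.93 CPM in the M lungs and at 1.47 to 5.11 CPM in the F lungs at baseline, and at 1.11 to 2.79 CPM in M and 2.19 to 4.25 CPM in F at the end of exposure. Hlf, an activator that binds D-boxes, had medians of 22.1 CPM in M and 16.2 CPM in F at baseline and of 17.7 and 15.4 CPM in M and F at the end of exposure. None of the 10 genes differed between M and F at baseline, where 0.0402% of 14907 genes passed an adjusted p of 0.05 (edgeR's quasi-likelihood test with Benjamini-Hochberg adjustment over all genes), and none at the end of exposure, where 0.0537% did. At an unadjusted p under 0.05 there were 1 and 2 members at these 2 times, and limma-voom and DESeq2 also called 0 at each. Without regard to the letter, no member differed between the end of exposure and baseline (4.11% of all genes did), with 1 member at an unadjusted p under 0.05 and 0 called by limma-voom and DESeq2. With only those 2 groups in the fit, 1 member was called.

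Later, the activators stood higher in the M lungs and most of their targets lower. At 7 months Arntl read 8.93, 10.2, 10.6, 13.5 and 16.5 CPM in the 5 M lungs, against 1.67, 2.04, 2.49, 3.43 and 3.51 CPM in the 5 F lungs. Each M lung was above each F lung, and above every lung of the first 2 times. Npas2, which can take the place of Clock, read 48.1, 67.7, 85.2, 95.7 and 172 CPM in M, against 7.56, 7.93, 10.3, 13.4 and 19.1 CPM in F. Here too there was no overlap. The log2 fold changes of M over F at 7 months were 2.18 ± 0.34 (SE) for Arntl, adjusted p = 0.00021, and 3.02 ± 0.40 for Npas2, adjusted p = 1.2e-05 (edgeR). Clock read 60.0, 78.0, 111, 121 and 123 CPM in M, against 39.6, 41.0, 56.3, 62.9 and 88.4 CPM in F. Its groups overlapped, and its fold change was the smallest of the 3 activators at 0.78 ± 0.23, adjusted p = 0.016 (edgeR), a call that total-count scaling ended.

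The outputs moved the other way at 7 months. Hlf read 3.78, 4.87, 6.74, 8.95 and 12.1 CPM in the M lungs, against 20.3, 21.8, 25.9, 30.1 and 41.3 CPM in the F lungs, with no overlap. Dbp read 2.20, 6.35, 9.24, 9.99 and 15.5 CPM in M, against 31.6, 35.8, 39.3, 42.2 and 99.3 CPM in F, again with no overlap. Nr1d2, a REV-ERB repressor, read 25.4, 58.1, 69.2, 72.5 and 72.8 CPM in M, against 135, 141, 171, 187 and 203 CPM in F. These groups did not overlap either, and 1 M lung stood far below the rest. The log2 fold changes were -1.93 ± 0.32 for Hlf, -2.51 ± 0.56 for Dbp and -1.49 ± 0.22 for Nr1d2, with adjusted p = 0.00034, 0.0030 and 0.00011 (edgeR). Of the Per genes, repressors of the activator pair, Per2 (-1.01 ± 0.27, adjusted p = 0.0094) and Per3 (-0.90 ± 0.26, adjusted p = 0.014) were lower in M, while Per1 (-0.26 ± 0.21, adjusted p = 0.40) and Nr1d1 (-0.71 ± 0.32, adjusted p = 0.11) did not pass the test (edgeR).

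In all, 8 of 10 members differed between the M and F lungs at 7 months, 3 higher and 5 lower, where 18.9% of all genes did, 8.79% higher and 10.1% lower. Scaling by total counts gave 2 higher and 6 lower, with Clock lost and Nr1d1 gained. It shifted the log2 fold changes of the 10 members by a median of -0.241. Values without overlap were found for 6 members, Arntl, Npas2, Per3, Dbp, Hlf and Nr1d2, against 5.05% of all genes; for Per3 the gap was narrow, with the highest M lung at 29.6 CPM and the lowest F lung at 29.7 CPM. Leaving out each lung in turn gave 6 to 8 members: Clock missed the threshold without 7-month lung replicate 3 or 9 (adjusted p up to 0.056, edgeR), and Per3 without replicate 9 (adjusted p = 0.053, edgeR).

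**Figure D1:**
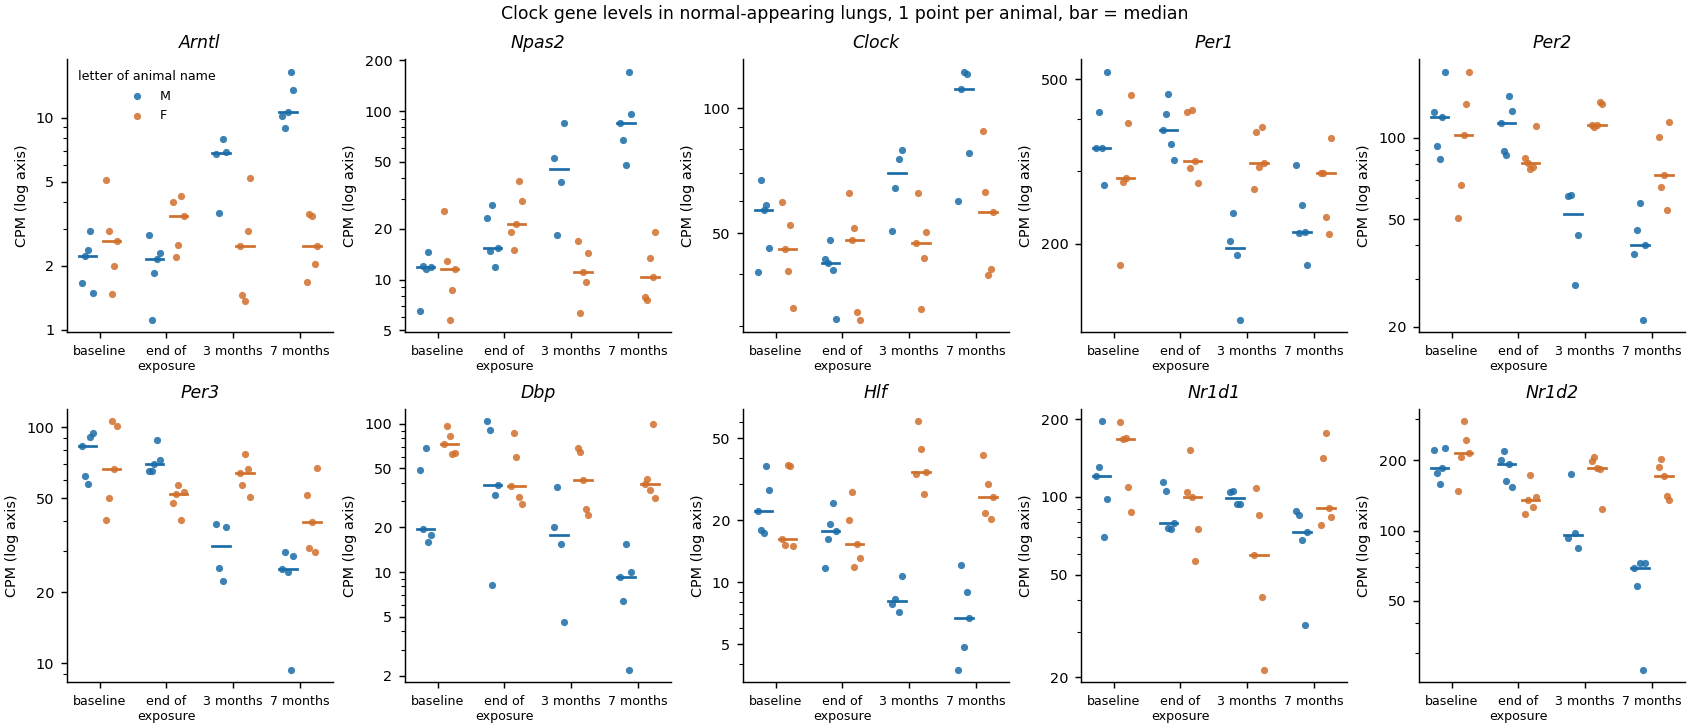
CPM on a log axis for each of the 10 genes in normal-appearing lung, by time, with 1 point per animal, M left of F, and a bar at the median. At 7 months the 5 M lungs lie between 8.93 and 16.5 CPM for Arntl and between 3.78 and 12.1 CPM for Hlf, against 1.67 to 3.51 and 20.3 to 41.3 CPM in the F lungs.

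At 3 months the same split was present for part of the set. Npas2 read 18.3, 37.9, 52.7 and 84.6 CPM in the 4 M lungs, against 6.34, 9.69, 11.1, 14.4 and 16.9 CPM in the 5 F lungs. Per2 read 28.6, 43.9, 61.0 and 61.3 CPM in M, against 110, 111, 112, 134 and 136 CPM in F, and Hlf read 7.14, 7.88, 8.31 and 10.7 CPM in M, against 26.9, 33.5, 34.2, 44.4 and 60.5 CPM in F. None of these 3 genes overlapped between the letters, nor did Per1 and Per3, a total of 5 members against 14.6% of all genes. Of the 10 members, 6 passed the test, 2 higher and 4 lower, where 10.6% of all genes did, 5.7% higher and 4.89% lower. Arntl (1.22 ± 0.35, adjusted p = 0.026) and Npas2 (2.04 ± 0.40, adjusted p = 0.0036) were higher in M, and Hlf (-2.23 ± 0.35, adjusted p = 0.00031), Per2 (-1.32 ± 0.29, adjusted p = 0.0083), Per3 (-1.03 ± 0.28, adjusted p = 0.018) and Per1 (-0.80 ± 0.22, adjusted p = 0.023) lower (edgeR). Arntl, with 3.57, 6.76, 6.93 and 7.90 CPM in M against 1.36, 1.46, 2.47, 2.93 and 5.22 CPM in F, overlapped only in that the lowest M lung lay below the highest F lung. The count fell to 3 without 3-month lung replicate 2 or replicate 9; Npas2, Per2 and Hlf kept their calls in every fit that left out 1 lung. Nr1d1 read 93.5, 93.6, 105 and 106 CPM in M, against 21.4, 40.9, 59.8, 85.2 and 108 CPM in F, and did not pass.

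The difference between letters itself differed between the later and the earlier times. For the later 2 times minus the earlier 2 times, the M minus F log2 difference grew by 2.25 ± 0.34 for Arntl (adjusted p = 0.00038) and by 2.83 ± 0.38 for Npas2 (adjusted p = 6.9e-05, edgeR). It was -2.10 ± 0.31 for Hlf, -1.43 ± 0.27 for Per2, -1.27 ± 0.26 for Per3, -1.20 ± 0.22 for Nr1d2 and -0.72 ± 0.21 for Per1. The 7 members called, 2 positive and 5 negative, compare with 7.86% of all genes, 4.54% positive and 3.32% negative. Per1, with an adjusted p of 0.033, lost its call in 7 of the fits that left out 1 lung (adjusted p up to 0.073, edgeR), and the other 6 kept theirs. Clock (0.60 ± 0.23, adjusted p = 0.091), Dbp (-1.38 ± 0.54, adjusted p = 0.097) and Nr1d1 (0.15 ± 0.33, adjusted p = 0.80) were not called.

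Against baseline, most members were called in the M lungs. In M lungs at 7 months, 9 of 10 members differed from baseline, 3 up and 6 down, all but Nr1d1, where 13.1% of all genes did, 6.76% up and 6.38% down. Arntl rose by 2.47 ± 0.35, Npas2 by 3.04 ± 0.40 and Clock by 0.87 ± 0.23 on the log2 scale, and Nr1d2 fell by 1.70 (SE 0.22), with adjusted p of 4.3e-05, 2.2e-05, 0.012 and 2.2e-05 (edgeR). Dbp fell by 1.99 (SE 0.55, adjusted p = 0.017, edgeR), and the changes of Hlf (-1.75), Per3 (-1.73), Per2 (-1.57) and Per1 (-0.71) were also calls. Scaling by total counts gave 2 up and 7 down. Leaving out 1 lung gave 7 to 9 members, with Dbp lost without baseline replicate 8 or 7-month replicate 9, and Per1 without 7-month replicate 9 or 10 or baseline replicate 10. In M lungs at 3 months 6 members were called, 2 up and 4 down, where 0.671% of all genes were, 0.523% up and 0.148% down, but the count was 3 without 3-month replicate 6, 2 without 3-month replicate 9 or baseline replicate 10, and 1 without 3-month replicate 8. At the end of exposure 0 members were called in M lungs by edgeR, limma-voom and DESeq2, none with an unadjusted p under 0.05 (0.537% of all genes were called).

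In F lungs few members were called against baseline. At 7 months 0 of 10 members differed from baseline in F lungs, where 6.63% of all genes did. Arntl had a log2 change of -0.11 ± 0.34 and Npas2 of -0.16 ± 0.38. Per3 (-0.75 ± 0.26) was the 1 member with an unadjusted p under 0.05. DESeq2 called 1 member and limma-voom 0, and edgeR called Per3 without baseline replicate 1, 7-month replicate 5 or 7-month replicate 9 (adjusted p up to 0.045). At 3 months 1 member was called, Nr1d1, which fell by 1.21 (SE 0.33, adjusted p = 0.025, edgeR), where 4.67% of all genes were, 2.54% down. This call was absent without baseline replicate 1 or 2 or 3-month replicate 4 or 5. At the end of exposure edgeR called 0 (3.31% of all genes), limma-voom 0 and DESeq2 1, with 3 members at an unadjusted p under 0.05; without baseline replicate 1 or 7-month replicate 9 edgeR called Nr1d2.

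Over both letters, 4 members differed between the 4 times (11.6% of all genes), with none called at 3 months against baseline (1.72%) and 6 at 7 months against baseline (12.8%), 3 up (7.52%) and 3 down (5.31%). At 3 months 5 members had an unadjusted p under 0.05, and limma-voom and DESeq2 called 0. At 7 months Arntl (1.55 ± 0.37), Npas2 (2.12 ± 0.48) and Clock (0.64 ± 0.19) rose, and Per2 (-0.89 ± 0.26), Per3 (-1.17 ± 0.24) and Nr1d2 (-0.88 ± 0.24) fell. Within the letters these are the M values and the F values given above.

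**Figure D2:**
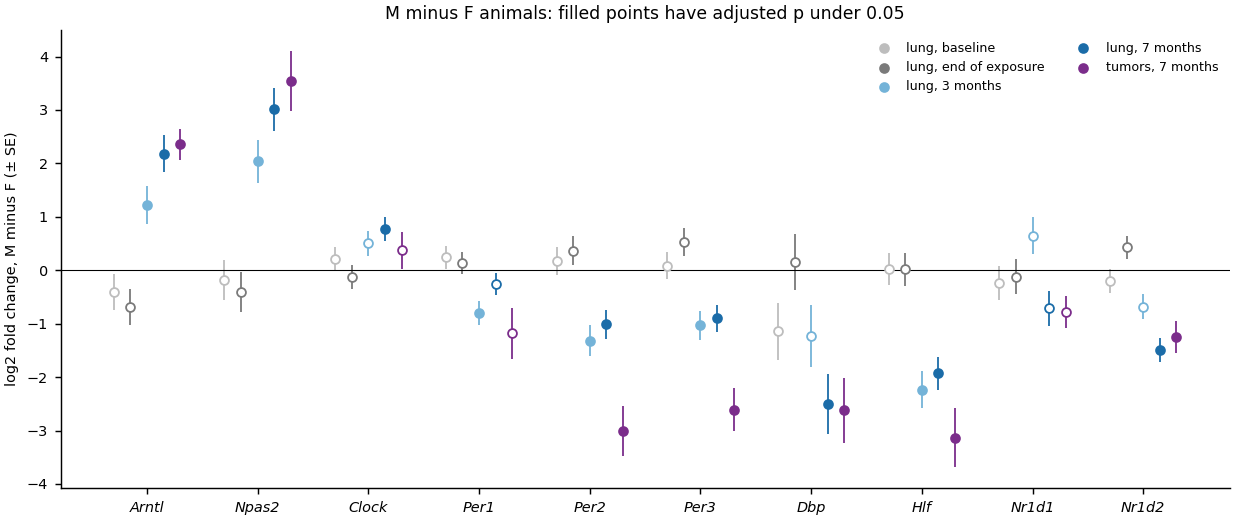
The log2 fold change of M over F (± SE) for each of the 10 genes in lungs at the 4 times and in tumors at 7 months, with filled points at an adjusted p under 0.05. No point is filled at baseline or at the end of exposure, 6 are filled at 3 months and 8 at 7 months in lungs, and 7 in tumors.

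A list of 18 other clock genes was read beside the members, of which 16 were tested, and Bhlhe41 and Ciart were not found under those symbols. In M against F lungs at 7 months 3 of 16 passed, all lower in M, a share near that of all genes (18.9%, of which 10.1% lower). They were Tef, the third D-box activator (-1.51 ± 0.30, adjusted p = 0.0014), Rora, an activator at ROR elements (-0.72 ± 0.22), and Bhlhe40, a repressor at E-boxes (-0.85 ± 0.24). Tef lay at 2.20 to 5.73 CPM in the M lungs, with a median of 5.31, and at 9.87 to 20.9 CPM in the F lungs, with a median of 11.5, and the groups did not overlap. At 3 months 1 of 16 passed, where 10.6% of all genes did: Rora (-0.97 ± 0.24). For the difference of the later and earlier times, 2 of 16 passed, where 7.86% of all genes did: Tef (-1.40 ± 0.30) and Rora (-0.83 ± 0.23). The cryptochromes Cry1 and Cry2, the other repressors of the activator pair, passed in none of these 3 comparisons.

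The summed markers of several cell types had medians that differed between the letters in the later lungs. The 4 club cell markers summed to 45688 to 132093 CPM (median 64208) in the 9 M lungs of the later 2 times, against 11208 to 62492 CPM (median 25844) in the 10 F lungs. The 7 endothelial markers summed to 717 to 1880 CPM (median 834) in M and 1021 to 2791 CPM (median 1771) in F, and the 5 lymphocyte markers in the table, of 6 listed, to 48.6 to 104 CPM in M and 81.4 to 226 CPM in F. Every marker of these 3 lists that the table holds was above 0 in some lung. The 9 genes in the table, of 10 listed, that are known to respond to glucocorticoids, hormones with a daily rhythm, summed to 455 to 1408 CPM (median 813) in M and 816 to 2119 CPM (median 1170) in F. Between M and F lungs at 7 months, where 18.9% of all genes were called, 2 of 4 club, 3 of 7 alveolar type 2 and 1 of 5 ciliated genes were higher in M, and 3 of 6 fibroblast and smooth muscle, 1 of 5 lymphocyte and 1 of 9 glucocorticoid-responsive genes lower, while 0 of 7 endothelial genes passed, with 1 at an unadjusted p under 0.05 (edgeR). At 3 months, where 10.6% of all genes were called, 2 of 7 endothelial and 3 of 9 glucocorticoid-responsive genes were lower in M (edgeR). So were 2 of 5 alveolar type 1, 1 of 5 lymphocyte and 1 of 10 immediate early genes. Higher were 1 of 4 club and 1 of 5 ciliated genes. Of 7 alveolar type 2 and 6 fibroblast and smooth muscle genes 0 passed. At an unadjusted p under 0.05 there were 5 endothelial, 6 glucocorticoid-responsive and 5 lymphocyte genes. In the test of later against earlier times (7.86% of all genes called by edgeR, the tool in which the lists were read), 1 of 4 club genes was higher, 2 of 9 glucocorticoid-responsive genes were lower, and 0 of 7 endothelial and 0 of 5 lymphocyte genes passed, with 3 and 0 of them at an unadjusted p under 0.05. The 6 adipocyte markers, fat being a tissue that can cling to dissected lung, summed to 23.7 to 663 CPM (median 121) in M and 26.2 to 340 CPM (median 65.1) in F. The part of these lists in the clock gene differences was not tested.

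Within a time and a letter, Dbp varied most among the members. At the end of exposure, Dbp lay at 8.16 to 104 CPM in the 5 M lungs, a 12.8-fold range, and at 28.6 to 86.8 CPM in the 5 F lungs. At baseline it read 15.9, 17.8, 19.6, 49.1 and 69.1 CPM in the M lungs, against 63.1, 63.2, 72.6, 82.3 and 96.9 CPM in the F lungs, so that 3 M lungs stood well below the other 7 lungs. Its SD within time and letter was 0.95 log2 units over the 20 lungs of the earlier 2 times, and 95.7% of tested genes had a smaller one. In the later 2 times it was 0.92, with 94.5% of genes below. Nr1d2 was the steadiest member of the earlier lungs, with an SD of 0.26 and 19.3% of genes below. The other members lay between these, and 6 of the 10 had an SD above the median of all genes, 0.385, in the earlier lungs. For the later lungs the members' median SD was 0.763 within time (all genes 0.504) and 0.481 within time and letter (all genes 0.453). Of the 10 members, 9 were above the median of all genes within time and 6 within time and letter.

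The members were next set against Arntl between animals, after removal of the time means, in 3 sets of lungs: the 20 earlier lungs, the 9 later M lungs and the 10 later F lungs. The later letters were kept apart because their Arntl levels differed, without overlap at 7 months and with some overlap at 3 months. In the 20 earlier lungs Npas2 followed Arntl (Pearson r = 0.73, permutation p = 0.00049, adjusted over the 27 relations computed 0.0066, Spearman rho = 0.68, permutation p = 0.0015). Nr1d2 ran against it (r = -0.75, permutation p = 0.00020, adjusted 0.0054, rho = -0.73, permutation p = 0.00055), as did Per3 (r = -0.66, permutation p = 0.0016, adjusted 0.014, rho = -0.60, permutation p = 0.0086). Without the 2 lungs whose Arntl lies farthest from the median, r was 0.64, -0.64 and -0.62 for Npas2, Nr1d2 and Per3, and none of them passed the adjusted threshold. Baseline lung replicate 1, an F lung with the highest Arntl (5.11 CPM) and a Npas2 of 25.5 CPM against 5.76 to 14.6 CPM in the other baseline lungs, is the most distant of them. In the earlier M lungs alone and in the end-of-exposure lungs alone no relation passed.

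Dbp, the member with the widest spread, had an r of 0.014 with Arntl in the earlier lungs (permutation p = 0.95, adjusted 0.95), and Nr1d1 an r of -0.024 (permutation p = 0.92, adjusted 0.95). In the later lungs both were negative: Dbp had an r of -0.62 in M (exact permutation p = 0.13, adjusted 0.29) and -0.55 in F (exact permutation p = 0.14, adjusted 0.29), and Nr1d1 of -0.61 in M (exact permutation p = 0.014, adjusted 0.080) and -0.51 in F (exact permutation p = 0.22, adjusted 0.38). In the 9 later M lungs the signs were those of the earlier lungs for Npas2 (r = 0.79, exact permutation p = 0.032, adjusted 0.15), Nr1d2 (r = -0.75, exact permutation p = 0.048, adjusted 0.16) and Per2 (r = -0.70, exact permutation p = 0.053, adjusted 0.16), but no relation passed after adjustment. Per3, called in the earlier lungs, had an r of -0.35 there (exact permutation p = 0.37, adjusted 0.52). Hlf had an r of 0.048, against -0.38 in the earlier lungs. In the 10 later F lungs Npas2 had an r of 0.39 (exact permutation p = 0.30, adjusted 0.45), and no relation passed. There Per3 had an r of -0.37, Per1 of -0.063 and Per2 of 0.10, the last with a sign opposite to that in the earlier lungs (-0.44). Without the 2 F lungs farthest in Arntl, r was 0.052 for Nr1d1 and 0.034 for Nr1d2, against -0.51 and -0.45 with them. For Dbp and Npas2 it was then -0.48 and 0.38. The same step in the later M lungs gave -0.77 for Nr1d1, -0.77 for Nr1d2, -0.63 for Dbp and 0.61 for Npas2.

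**Figure D3:**
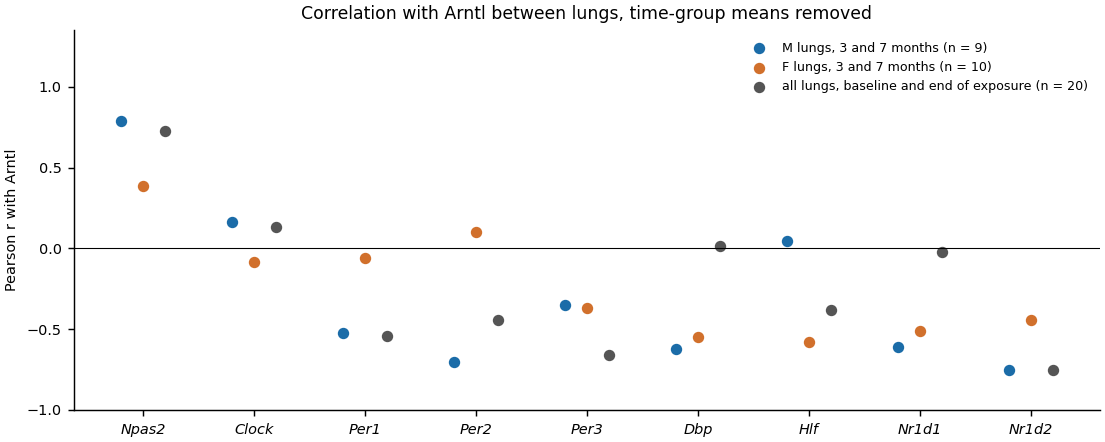
Pearson r with Arntl for the 9 other members between lungs, time means removed, in the 20 earlier lungs, the 9 later M lungs and the 10 later F lungs. Npas2 lies at 0.73, 0.79 and 0.39 and Nr1d2 at -0.75, -0.75 and -0.45, while Dbp lies at 0.014, -0.62 and -0.55 and Nr1d1 at -0.024, -0.61 and -0.51. Without the 2 lungs farthest in Arntl, the later F values were 0.034 for Nr1d2 and 0.052 for Nr1d1.

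The same question over all 39 lungs, as a slope on log2 Arntl within time, gave 8 of 9 members, 2 positive and 6 negative, where 23.3% of all genes passed, 11.9% positive and 11.4% negative. Total-count scaling gave 1 positive and 6 negative, with Clock lost. With a mean per time and letter, and Arntl centred within each, edgeR called 0 (0.0% of all genes) and limma-voom 0. DESeq2 called 1, and 6 members had an unadjusted p under 0.05 (edgeR). Npas2 kept a slope of 0.78 ± 0.17 log2 units per log2 unit of Arntl and Nr1d2 of -0.41 ± 0.10 in that fit (adjusted p = 0.47 and 0.83, edgeR), against 1.14 ± 0.11 and -0.57 ± 0.07 without the letter.

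Among 11294 genes outside both clock lists whose lung mean reached 5 CPM, the ones closest to Arntl over the 39 lungs, time means removed, were Leo1 (r = 0.85), Lmna (0.78), Gm10046 (0.78), Ppp1r16a (0.77) and Creb3l1 (0.77). The 5 most opposed were Tspan4 (-0.84), Pde1a (-0.81), LOC108169023 (-0.78), Ccbe1 (-0.76) and Tax1bp1 (-0.75). These values describe a ranking, and the letter enters them: Tspan4, a membrane protein, had a median of 22.99 CPM in the later M lungs and 114 CPM in the later F lungs, and an r of -0.58 with Arntl in the earlier lungs. Leo1, a subunit of the PAF1 complex of RNA polymerase II, had medians of 12.6 and 6.09 CPM in the later M and F lungs and an r of 0.59 in the earlier lungs. Closest to Dbp were Wdr12 (0.82), Sdad1 (0.82), Arhgap5 (0.82), Ccdc137 (0.81) and Rsrc2 (0.81), and most opposed were Brpf1 (-0.80), 2010107G23Rik (-0.79), Klc4 (-0.79), Pwp2 (-0.78) and Nip7 (-0.77). Wdr12 had an r with Dbp of 0.63 in the 20 earlier lungs, 0.90 in the 9 later M lungs and 0.73 in the 10 later F lungs. These are parts of the 39 lungs in which it was ranked, so the values are not independent of the ranking. The lungs share the platform but differ in depth, and no p is given.

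Tumors were compared with the lung of the same animal, tumors of 1 animal being summed. Hlf was lower in the tumors of 16 of 16 animals, by 1.79 on the log2 scale (log2 fold change -1.79 ± 0.21, adjusted p = 4.9e-06, edgeR), and Arntl was higher in 14 of 16 (0.62 ± 0.15, adjusted p = 0.0021). At 7 months Hlf lay at 0.122 to 3.01 CPM in the 14 M tumors, from counts of 2 to 35, against 3.78 to 12.1 CPM in the 5 M lungs, and at 4.74 to 18.3 CPM in the 9 F tumors against 20.3 to 41.3 CPM in the 5 F lungs. Tumors and lungs of a letter did not overlap. For tumor against lung, the shares of all genes that separate in this way, or go 1 way in every animal, are not given here. Such patterns are therefore description only. On average over the animals 7 of 10 members differed, 2 higher and 5 lower, where 50.1% of all genes did, 24.9% higher and 25.2% lower, so that a call here is common. Besides Hlf and Arntl, Clock (0.39 ± 0.15, adjusted p = 0.039) was higher, and Per3 (-0.83 ± 0.18, adjusted p = 0.0012), Npas2 (-0.73 ± 0.26, adjusted p = 0.029), Dbp (-0.50 ± 0.17, adjusted p = 0.021) and Nr1d1 (-0.39 ± 0.13, adjusted p = 0.015) lower (edgeR). Total-count scaling gave 1 higher and 8 lower and DESeq2 size factors 1 higher and 6 lower, both with Clock lost. The total-count scaling shifted the log2 fold changes of the 10 members by a median of -0.211. Clock lost its call in 9 and Npas2 in 4 of the 16 fits that left out 1 animal (adjusted p up to 0.086 and 0.074, edgeR).

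**Figure D4:**
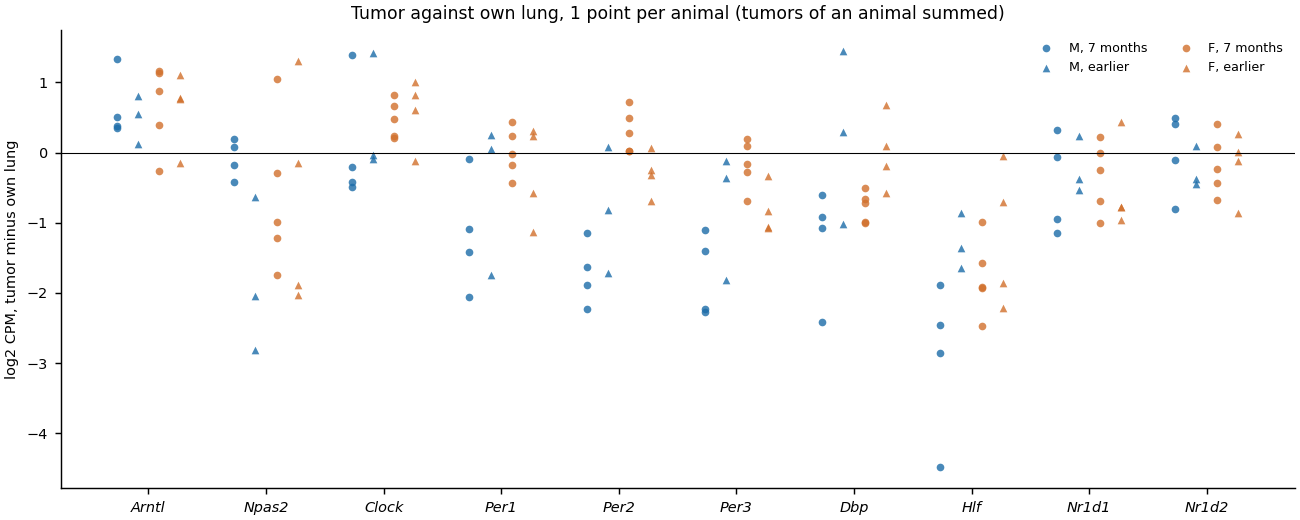
log2 CPM of the tumors of an animal, summed, minus its own lung for each of the 10 genes, with 1 point per animal, by time and letter. All 16 points lie below 0 for Hlf and 14 lie above 0 for Arntl. At 7 months Per2 lies below 0 in the 4 M animals and above 0 in the 5 F animals, the lowest F values being 0.019 and 0.028.

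By time, tumors differed from their lungs in 0 members at the end of exposure (edgeR; 4.67% of all genes), 3 members, all lower, at 3 months (21%, of which 11% lower) and 4 at 7 months (38.4%), 1 higher (18.4%) and 3 lower (20%). The 3 animals of the end of exposure had 1 member with an unadjusted p under 0.05, limma-voom called 0 and DESeq2 1. At 3 months Hlf (-1.60 ± 0.41), Per3 (-1.19 ± 0.36) and Nr1d1 (-0.72 ± 0.25) were lower in tumors, and none of them was called without the animal of 3-month lung replicate 1, 3 or 8. At 7 months Arntl was higher (0.65 ± 0.19, adjusted p = 0.014) and Hlf (-2.21 ± 0.28, adjusted p = 4.0e-05), Dbp (-0.97 ± 0.23, adjusted p = 0.0033) and Per3 (-0.85 ± 0.25, adjusted p = 0.012) lower (edgeR), and Dbp and Hlf were lower in 9 of 9 animals. Total-count scaling gave 0 higher and 6 lower at 7 months, with Arntl lost, and shifted the members' log2 fold changes by a median of -0.228. The tumor effect at 7 months minus that of the earlier times was called for 0 members by edgeR, limma-voom and DESeq2 (0.0% of all genes), with 2 at an unadjusted p under 0.05.

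Of the Per genes, Per2 and Per3 separated the letters in this comparison. Per2 at 7 months lay at 5.97 to 37.5 CPM in the 14 M tumors, against 21.2 to 57.4 CPM in the 5 M lungs, and at 32.2 to 274 CPM in the 9 F tumors, against 53.9 to 114 CPM in the 5 F lungs. It was lower in tumor than in own lung in 4 of 4 M animals and higher in 5 of 5 F animals. For F lung replicates 3 and 4 the Per2 difference was only 0.028 and 0.019 log2 units. Total-count scaling shifted the members' log2 fold changes in F animals by a median of -0.303, so the direction in F depends on the scaling. In M animals 5 members were called, all lower in tumors: Per2 (-1.72 ± 0.22, adjusted p = 0.00025), Per3 (-1.75 ± 0.22, adjusted p = 0.00025), Per1 (-1.16 ± 0.29, adjusted p = 0.0070), Dbp (-1.24 ± 0.37, adjusted p = 0.017) and Hlf (-2.85 ± 0.39, adjusted p = 0.00031, edgeR). Of all genes 39.4% were called, 20.9% lower. Dbp missed the threshold without the animal of 7-month lung replicate 10 (adjusted p = 0.095, edgeR). In F animals only Hlf passed (-1.77 ± 0.32, adjusted p = 0.0019), where 30.4% of all genes did, 15.1% lower, and Arntl too without the animal of 7-month lung replicate 3 (adjusted p = 0.041, edgeR). The M minus F difference of the tumor effect was -2.03 ± 0.29 for Per2 (adjusted p = 0.0066), -1.58 ± 0.29 for Per3 (adjusted p = 0.0079) and -1.17 ± 0.38 for Per1 (adjusted p = 0.046, edgeR), the 3 members that passed where 17.6% of all genes did, 7.62% with a negative difference. Per1 missed the threshold in 7 of the 9 fits that left out 1 animal (adjusted p up to 0.14, edgeR), and its animals overlapped: it was lower in tumor in 4 of 4 M animals, by -2.05 to -0.09 on the log2 scale, and in 3 of 5 F animals, whose values ran over -0.44 to 0.44.

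The split between letters seen in the later lungs was also present among the tumors at 7 months. Arntl lay at 9.36 to 36.2 CPM (median 18.7) in the 14 M tumors and at 1.91 to 7.24 CPM (median 3.98) in the 9 F tumors, without overlap, and Hlf did not overlap either. These 2 members compare with 0.651% of all genes without overlap. The 5 lymphocyte markers summed to 17.5 to 97.2 CPM in the M tumors and 91.7 to 1386 CPM in the F tumors, and their part in the clock gene differences was not tested. With tumors of an animal summed, 7 members differed, 2 higher and 5 lower in M, where 2.17% of all genes did, 1.22% higher and 0.95% lower. Arntl (2.36 ± 0.29, adjusted p = 0.0023) and Npas2 (3.54 ± 0.56, adjusted p = 0.017) were higher, and Hlf (-3.13 ± 0.55, adjusted p = 0.027), Per2 (-3.01 ± 0.47, adjusted p = 0.017), Per3 (-2.61 ± 0.41, adjusted p = 0.017), Dbp (-2.62 ± 0.61, adjusted p = 0.046) and Nr1d2 (-1.26 ± 0.30, adjusted p = 0.048) lower (edgeR). Total-count scaling gave 2 higher and 3 lower, with Dbp and Nr1d2 lost. The 4 M and 5 F animals are few, and the count was 1, Arntl, without the animal of 7-month lung replicate 9, 3 without that of replicate 10 and 4 without that of replicate 1, 2, 5 or 6.

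Tumor levels were next set against the Arntl level of the animal's own lung. As a slope on own-lung Arntl within time, 8 of 10 members passed, 2 positive and 6 negative, where 12.9% of all genes did, 6.51% positive and 6.37% negative, and tumor Arntl had a slope of 0.93 ± 0.12 log2 units per log2 unit of own-lung Arntl (adjusted p = 0.0023, edgeR). Without the animal of 7-month lung replicate 9 the count was 4. In the same fit all 5 lymphocyte markers tested were negative and passed, with a median slope of -1.20 beside -0.59 for the members, and their part in the clock gene slopes was not tested. With a mean per time and letter, and own-lung Arntl centred within each, edgeR, limma-voom and DESeq2 called 0 (0.0% of all genes). There 1 member had an unadjusted p under 0.05, and the Arntl slope was -0.10 ± 0.37 (edgeR). Within the letters the slopes of Arntl and Npas2 were -0.14 and -0.84 in F animals and the slope of Hlf was 0.25 in M animals, each with a sign opposite to the pooled one.

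Gene by gene, the level in tumor was set against the level of the same gene in own lung within each letter, time means removed, in 20 relations. In 8 F animals the Per genes had the highest r: Per3 0.90 (exact permutation p = 0.019, adjusted 0.19, rho = 0.83, exact permutation p = 0.072), Per2 0.89 (exact permutation p = 0.032, adjusted 0.21, rho = 0.79, exact permutation p = 0.11) and Per1 0.86 (exact permutation p = 0.0083, adjusted 0.17, rho = 0.88, exact permutation p = 0.0056). Without the 2 animals farthest from the median these were 0.80, 0.76 and 0.83. Arntl had an r of -0.29 there. In 6 M animals Npas2 had an r of 0.85 (exact permutation p = 0.10, adjusted 0.35) and Arntl of 0.20, and the value for Npas2 turned to -0.59 and that for Arntl to 0.76 without the 2 farthest animals. The Per genes were positive in M too. Per1, Per2 and Per3 had r of 0.75, 0.80 and 0.67 (exact permutation p = 0.29, 0.125 and 0.40, adjusted 0.45, 0.36 and 0.53). Without the 2 farthest animals these were 0.71, 0.43 and 0.42. None of the 20 passed after adjustment. The M animals allowed only 48 permutations, against 720 in F. With 48, the smallest possible p was too large for a single M relation to pass, so the M result decides nothing. Over all genes the median r was 0.14 in M and 0.30 in F animals, so that a positive r between tumor and own lung was common.

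Tumors were also compared between animals. Here the units were single tumors, not summed, and the spread was that between tumors of the same animal, with 17 residual degrees of freedom. Animals with 1 tumor added nothing to that spread, and 7 of the tumors came from 1 animal, that of M lung replicate 8. The p values therefore do not measure the spread between animals. Among tumors of the same time, 9 of 10 members differed between animals, all but Clock, where 27.2% of all genes did; these differences include those between M and F. Among tumors of the same time and letter, 2 members did, Per1 (adjusted p = 0.00062) and Per2 (adjusted p = 0.030, edgeR), where 7.51% of all genes did. Other members varied widely among tumors of 1 animal: in the 7 tumors of M lung replicate 8 at 7 months the highest level was 8.79 times the lowest for Dbp and 12.3 times for Hlf, whose counts there are low, and in the 2 tumors of F lung replicate 4 it was 7.96 times for Dbp. At 7 months Per1 lay at 37.0 to 49.7 CPM in the 3 tumors of M lung replicate 10 and at 77.7 to 81.3 CPM in the 2 tumors of M lung replicate 9, against 146 to 156 CPM in the 2 of M lung replicate 6 and 195 to 291 CPM in the 7 of M lung replicate 8. These 4 ranges do not overlap. The lungs of the same animals read 178, 214, 310 and 248 CPM, the same order except that the last 2 change places. Per2 lay at 6.02 to 13.9, 5.97 to 7.55, 8.34 to 13.7 and 18.8 to 37.5 CPM in the tumors of these 4 animals, the last standing above the other 3, and its own lung, at 57.4 CPM, was also the highest of the 4. In F animals Per2 lay at 135 to 274 CPM in the 3 tumors of lung replicate 1 and at 163 CPM in the single tumor of replicate 5, against 32.2 to 91.2 CPM in the 5 tumors of the other 3 animals. The own lungs of replicates 1 and 5, at 101 and 114 CPM, were likewise above those of the other 3, at 53.9 to 73.0 CPM.

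**Figure D5:**
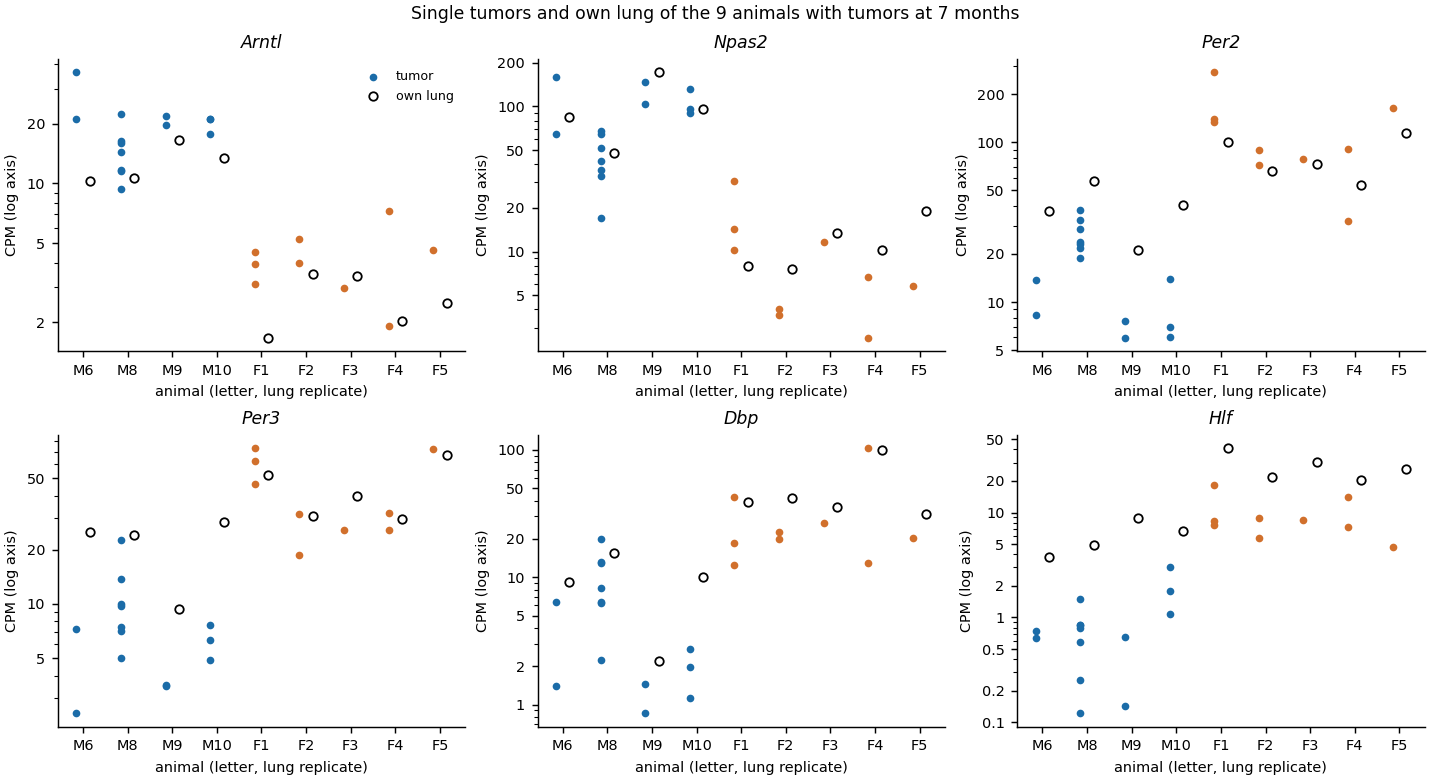
CPM on a log axis of single tumors and of the own lung for the 9 animals with tumors at 7 months, 1 column per animal, M animals left of F animals. Panels show Arntl, Npas2, Per2, Per3, Dbp and Hlf. The 7 tumors of M lung replicate 8 span 18.8 to 37.5 CPM for Per2, below their own lung at 57.4 CPM, while the 3 of F lung replicate 1 span 135 to 274 CPM, above theirs at 101 CPM.

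Among the 16 other clock genes tested, 10 differed between tumor and own lung on average, 4 higher and 6 lower. With 50.1% of all genes called in this comparison, 24.9% higher and 25.2% lower, such a count is near the background. Bhlhe40 (1.26 ± 0.11, adjusted p = 6.1e-07), Timeless (0.76 ± 0.19), Rora (0.34 ± 0.13) and Nampt (0.23 ± 0.09), which encodes the enzyme that sets the pace of NAD salvage, were higher. Usp2, a deubiquitinase (-1.84 ± 0.24, adjusted p = 1.6e-05), Rorb (-1.69 ± 0.41), Cry2 (-0.94 ± 0.11, adjusted p = 6.3e-06), Cry1 (-0.53 ± 0.13), Tef (-0.53 ± 0.14) and the kinase Csnk1e (-0.52 ± 0.13) were lower (edgeR). Bhlhe40 lay at 110 to 430 CPM in the 33 tumors, with a median of 213, against 51.3 to 151 CPM in the 39 lungs, with a median of 87.6. Between the letters at 7 months, Nfil3, a repressor at D-boxes, was higher in M than in F tumors (3.18 ± 0.41, adjusted p = 0.0028) and Tef lower (-1.73 ± 0.37, adjusted p = 0.037, edgeR). Nfil3 lay at 3.61 to 100 CPM (median 34.1) in the M tumors and at 1.07 to 11.3 CPM (median 5.12) in the F tumors, and between those groups there was overlap.

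Tumors also differed from lung in their cell type markers. The 7 alveolar type 2 markers were all higher in tumors on average and summed to 13024 to 290259 CPM (median 80592), against 12451 to 60418 CPM (median 21288) in lungs. All 4 club, all 5 ciliated, all 5 cardiac muscle and 5 of 7 endothelial markers were lower, all 4 macrophage markers tested were higher, and of 6 fibroblast and smooth muscle markers 3 were higher and 3 lower, where 24.9% of all genes were higher and 25.2% lower. Of 9 glucocorticoid-responsive genes, 4 were higher and 3 lower. The cardiac muscle sum was 1.85 to 321 CPM (median 16.1) in tumors, against 86.7 to 5286 CPM (median 591) in lungs. The club sum was 164 to 53241 CPM (median 6323) in tumors, against 11208 to 132093 CPM (median 44829) in lungs. Their part in the clock gene differences between tumor and lung was not tested.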

How the data were processed

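RNA of 39 normal-appearing lungs and 33 tumors was made into Ion AmpliSeq transcriptome libraries, which read a single amplicon per gene, from 10 ng of RNA, with 8 libraries per Ion Proton chip, per the labels' protocols. The deposited table holds the authors' raw read counts per gene; its aligner and genome build were not given in the sources used here. No length correction applies, so levels are compared between libraries and not between genes. Of its columns, 2 matched no sample and were not used. Counts behind any level are limited by depth, 7459147 to 21822522 counts per library. No library pair agreed within sampling noise. The labels name a separate animal for each lung.

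Counts were scaled by TMM into CPM and tested with edgeR 4.0.16 (quasi-likelihood, filterByExpr, R 4.3.3) over all genes, with Benjamini-Hochberg adjustment and a threshold of 0.05. Tumor counts were summed per animal, except in the comparison of tumors between animals, which used single tumor libraries. Tumor and lung were paired by animal as a block, since the labels give both the same animal name. Over 13943 genes, deviations of tumor and own lung from the time means correlated at -0.0958 to 0.449 (median 0.239, over 0.1 in 11 of 16 animals). The own lung was the closest within its time in 7 of the 16. These deviations keep the difference between the letters. In the paired fits the CPM were scaled among the paired libraries. Alternatives were limma-voom 3.58.1, DESeq2 1.42.0, total counts, DESeq2 size factors, no filter, other covariates, the deepest tumor per animal, and leaving out each animal. Correlations used log2 CPM with time means removed and permutations within time, exact or 100000 drawn (SciPy 1.17.1). They were planned over all lungs and are given by letter, since Arntl differed between the letters in the later lungs. Scripts were tested on simulated data.

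The members and gene lists were chosen with earlier results of these data known. The genes named are the 10 members, the listed other clock genes by counts and those with an adjusted p under 0.05, and the 5 genes at each end of the correlation with Arntl and with Dbp, at a mean of at least 5 CPM. Lists of markers of 10 cell types, of glucocorticoid response and of immediate early genes were read beside them. Of the planned list of other clock genes, 2 are not reported here.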

Additional observations from a re-analysis of the deposited data

Results flagged for a closer look

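In 3 of 60 sets of 4 to 10 libraries, 1 value stood apart from the rest by its gap relative to the range; chance gives about 1 in 20. Baseline lung replicate 1, an F lung, had the highest Arntl of its group, at 5.11 CPM against 1.47 to 2.93 CPM in the other 9, and the highest Npas2, at 25.5 CPM against 5.76 to 14.6 CPM. 7-month lung replicate 4, also an F lung, had a Dbp of 99.3 CPM against 2.20 to 42.2 CPM in the other 9.

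The M minus F difference in lung changed between the earlier and later 2 times, by the test of that change (edgeR), for Arntl (2.25), Npas2 (2.83), Per1 (-0.72), Per2 (-1.43), Per3 (-1.27), Hlf (-2.10) and Nr1d2 (-1.20), and among the other clock genes for Rora (-0.83) and Tef (-1.40), all in log2 units. The difference between tumor and own lung at 7 months differed between M and F animals for Per1 (-1.17), Per2 (-2.03) and Per3 (-1.58), and among the other clock genes for Rora (0.96), Arntl2 (-1.88) and Nfil3 (3.23). Rora, lower in M than in F lungs at 7 months, had a tumor effect that was higher in M than in F animals. Sex, hour of collection, litter and chip cannot be told apart here.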

How the results depend on the processing

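Values here are counts of members called unless stated. The share of all genes called in each of these fits is not given. Whether the members gained or lost calls more than other genes did cannot be read from these counts. With DESeq2 the test of any difference between the 4 times gave 7, the Arntl slope within time and letter 1, F lungs at the end of exposure 1 and at 7 months 1, tumors at the end of exposure 1, and F tumors at 7 months 2. F tumors also gave 2 with total counts and with the deepest tumor of each animal, which gave 0 for tumors at 3 months. End of exposure against baseline gave 1 with only those 2 groups fitted. Without the 5 lungs over 300 CPM of the heart gene Myh6, F lungs gave 0 at 3 months and 1 at 7 months; no animal with tumors was over that limit, so this was not run for tumors. With no replicate block for the animal, tumors against lung gave 1 on average, 0 at the end of exposure, 0 at 3 months, 1 at 7 months and 0 for the change with time. The tumor slope on own-lung Arntl gave 0 in F animals alone, with slopes of -0.14 for Arntl and -0.84 for Npas2, and 0 in M animals alone, with 0.25 for Hlf, all opposite in sign to the pooled slopes. Relations with Arntl in the earlier lungs passed for 3 members, and for 0 without the 2 farthest lungs, in end-of-exposure lungs alone and in M lungs alone. The cause of these changes was not tested, beyond the smaller number of samples where some were left out.

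Leaving out 1 lung gave 3 to 7 for M against F at 3 months, 6 to 8 at 7 months, 0 to 0 at baseline and at the end of exposure, and 6 to 7 for later minus earlier times. Against baseline it gave 0 to 0, 1 to 6 and 7 to 9 in M lungs and 0 to 1 at each time in F lungs. Leaving out 1 animal gave 5 to 9 for tumors on average, 0 to 0, 0 to 4 and 4 to 5 at the 3 times, 0 to 0 for the change with time, 4 to 5 in M, 1 to 2 in F and 2 to 3 for M minus F. M against F tumors gave 1 to 7 and the tumor slope 4 to 8. No tumor and own lung relation passed in any (0 to 0), which decides nothing for M animals, whose permutations were at most 48. Of 5930 single values from fits without 1 animal, 5790 kept their direction and side of the threshold, 115 lost it and 25 gained it; of 2155 from other settings 2049 kept it, 72 lost it, 31 gained it and 3 reversed. Low counts limit Hlf in M tumors, at 2 to 35 counts.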

Other observations

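In the test of the M minus F lung difference, later minus earlier times, 7.86% of all genes passed, 4.54% higher and 3.32% lower (edgeR). The other marker lists gave 0 or 1 call each. Higher were 1 of 6 adipocyte genes, 1 of 7 alveolar type 2 genes, 1 of 5 cardiac muscle genes and 1 of 5 ciliated genes, and lower was 1 of 6 fibroblast and smooth muscle genes. Of 5 alveolar type 1 genes, 4 macrophage genes and 10 immediate early genes 0 passed, with 2, 1 and 2 at an unadjusted p under 0.05.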
